A study of Mus musculus with 3 samples.

Results

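The genes described here make cholesterol and fatty acids, control that synthesis, or remove cholesterol from the cell. The set holds 37 genes of the 18951 that could be named on the arrays: 5 regulators of the sterol response, 18 genes of sterol synthesis and transfer, 9 of fatty acid synthesis, and 5 of the liver X receptor (LXR) pathway and cholesterol efflux. Members were chosen by name, as genes of these pathways, and each was found through the RefSeq accession of its probes. All 37 had a probe, and the probe used was well above background on all 3 arrays for all 37.

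RNA of 3 mouse cultures was read on 3 one-colour arrays, 1 array for each culture, so no group has a replicate. The 7-factor culture came from embryonic fibroblasts of ICR mice (E13.5) given in 2 rounds retroviruses for the thyroid transcription factors Foxe1, Nkx2.1 and Pax8 and the reprogramming factors c-Myc, Klf4, Sox2 and Oct3/4, and the 8-factor culture received the same set and Hhex. Both spent 1 week in DMEM low glucose with 10% FBS and 2 weeks in DMEM/F12 with 10% FBS, antibiotics, non-essential amino acids, potassium iodide at 1 µg/mL, thyroid stimulating hormone (TSH) at 1 U/mL and the supplements N2 and B27, and were collected at 21 days. The primary culture, follicular cells from the thyroid of ICR adults, spent 1 week in the second of these media, so serum was present in all 3 cultures. No array of uninfected fibroblasts was analysed here, and how many animals gave each culture is not given in the sources used here.

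Cells adjust cholesterol synthesis to need. Sterol regulatory element binding proteins (SREBPs) are made as membrane proteins of the endoplasmic reticulum, where the escort protein SCAP carries them to the Golgi for cleavage when sterol is scarce and INSIG proteins hold them back when sterol is plentiful; the freed part enters the nucleus and switches on the enzymes of sterol and fatty acid synthesis together with partner factors that bind CCAAT and GC boxes. Oxidised sterols act the other way through LXRs, nuclear receptors that raise the cholesterol exporters Abca1 and Abcg1 and the ubiquitin ligase Mylip, which removes lipoprotein receptors from the surface.

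Sequences before the transcript starts are shown for 6 members, chosen to set sterol enzymes that were lower in the induced cultures (Hmgcs1, Mvk, Msmo1) beside others that were not (Dhcr7, Ebp) and beside an exporter (Abca1). Each is the 250 bases before a RefSeq start in GRCm38.p6, written 5′ to 3′ on the gene's strand, with matches to CCAAT and to the sterol regulatory element TCACNCCAC on either strand in capitals. Positions are chr13:119690101-119690350 (plus strand) for Hmgcs1, chr5:114444019-114444268 (plus) for Mvk, chr8:64733579-64733828 (minus) for Msmo1, chr7:143829964-143830213 (plus) for Dhcr7, chrX:8193513-8193762 (minus) for Ebp and chr4:53159896-53160145 (minus) for Abca1. The Dhcr7 stretch is 1 of 3 listed for that gene, chosen because it holds CCAAT matches.
Hmgcs1: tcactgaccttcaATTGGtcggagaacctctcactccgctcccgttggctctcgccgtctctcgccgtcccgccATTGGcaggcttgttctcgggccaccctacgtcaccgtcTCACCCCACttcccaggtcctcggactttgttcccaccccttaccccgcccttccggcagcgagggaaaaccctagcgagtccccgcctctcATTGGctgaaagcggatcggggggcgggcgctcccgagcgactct
Mvk: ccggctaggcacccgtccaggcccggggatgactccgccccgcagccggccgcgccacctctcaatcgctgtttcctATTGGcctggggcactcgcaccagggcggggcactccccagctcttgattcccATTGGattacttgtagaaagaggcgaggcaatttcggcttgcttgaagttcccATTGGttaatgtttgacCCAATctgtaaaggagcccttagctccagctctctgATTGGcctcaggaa
Msmo1: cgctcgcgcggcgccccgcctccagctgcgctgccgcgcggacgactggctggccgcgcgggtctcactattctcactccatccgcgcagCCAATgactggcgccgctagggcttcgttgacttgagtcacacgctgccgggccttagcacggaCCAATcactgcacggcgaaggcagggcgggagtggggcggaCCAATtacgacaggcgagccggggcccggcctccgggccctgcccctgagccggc
Dhcr7: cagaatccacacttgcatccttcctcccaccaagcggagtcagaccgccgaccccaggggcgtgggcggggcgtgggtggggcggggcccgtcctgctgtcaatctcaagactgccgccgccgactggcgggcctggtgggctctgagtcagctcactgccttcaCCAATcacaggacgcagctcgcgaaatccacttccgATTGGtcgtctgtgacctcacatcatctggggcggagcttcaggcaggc
Ebp: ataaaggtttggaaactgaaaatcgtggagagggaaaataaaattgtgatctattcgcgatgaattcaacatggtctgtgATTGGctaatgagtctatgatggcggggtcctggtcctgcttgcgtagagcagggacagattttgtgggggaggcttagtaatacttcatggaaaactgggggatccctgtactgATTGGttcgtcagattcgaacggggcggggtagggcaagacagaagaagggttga
Abca1: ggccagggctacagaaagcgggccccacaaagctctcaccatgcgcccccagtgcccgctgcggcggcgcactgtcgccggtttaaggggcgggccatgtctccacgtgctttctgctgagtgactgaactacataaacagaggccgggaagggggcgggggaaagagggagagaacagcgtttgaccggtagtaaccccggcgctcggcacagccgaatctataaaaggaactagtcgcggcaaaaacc

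Of these 6 stretches, Hmgcs1 alone held a match to TCACNCCAC, together with 3 CCAAT matches. Mvk held 5 CCAAT matches, Msmo1 held 3, Dhcr7 and Ebp held 2 each, and Abca1 held 0. Lss and Cyp51, not shown, held 1 CCAAT match each, although they were also lower in the induced cultures. The 6 stretches therefore do not show that the number of matches goes with the difference, and such a link was not tested. Among the 29 members with an entry in the RefSeq table, all 14 sterol synthesis genes with an entry had a CCAAT match (100% of genes), against 4 of 5 regulators, 2 of 6 fatty acid genes, 1 of 4 LXR and efflux genes, and 37.5% of the 27025 genes in the table. GGGCGG, the GC box, was matched in 13 of the 14 sterol genes and in 35.4% of all genes, and CACGTG, the E-box, in 3 of the 14 and in 6.86%. TCACNCCAC was matched in 1 of the 14 and in 1.22% of all genes. The LXR direct repeat was searched in a strict form, with its first base fixed to a single letter and its spacer of any bases. That form was matched in 0 of 29 members and in 0.229% of all genes. On its reverse strand the Abca1 stretch shown holds a repeat that differs from that form at the first base alone. Looser forms were not searched, so the 0 does not mean that these stretches lack an LXR repeat. Motifs were searched on both strands and counted separately where they overlap, and a gene with several starts counted once if any start had a match. The other 2 starts listed for Dhcr7 held no CCAAT match. A match is a description of the letters, and a window without one says nothing of the factor.

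**Figure D1:**
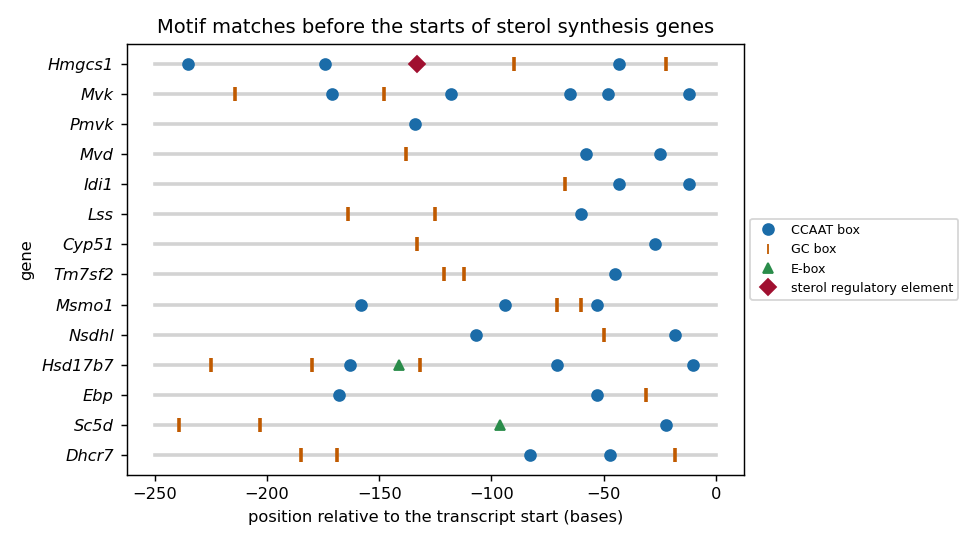
Positions of CCAAT boxes, GC boxes, E-boxes and sterol regulatory elements in the 250 bases before the start of the 14 sterol synthesis genes with a RefSeq entry (x axis, bases relative to the start; 1 start per gene, the first listed with a CCAAT match). Each of the 14 genes carries at least 1 CCAAT match, and only Hmgcs1 carries a match to the sterol regulatory element.

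A level is the log2 of a probe's intensity less the log2 of its array's 75th percentile, and a difference is the level in the culture named first minus that in the other. Genes at least 2-fold apart, which is 1 on this scale, are called higher or lower, and no p-value is given because each group has 1 array. The error that the scanner software attaches to such a difference lay between 0.204 and 0.207 for every member and comparison, and it does not include differences between cultures. The 75th percentile signal was 2190 intensity units with 7 factors, 2540 with 8 and 504 in primary cells, and 78.2%, 78.2% and 64.2% of spots were well above background. The primary array lay on another slide and was read in another scan than the induced arrays, so slide and group cannot be told apart in comparisons with it. Without scaling between arrays the median of all genes measured on both arrays moved by 2.12 (7 factors) and 2.33 (8 factors), and all differences from the primary culture below are relative to the scaled arrays. For this reason the rank of a member's difference among all genes measured on both arrays is also given, since dividing an array by a constant leaves that rank as it is.

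The cultures also differed in the cells they held, as their defining markers show. All 9 macrophage markers with a probe were well above background in the primary culture with a summed signal of 83.6 times the 75th percentile, against 0.877 with 7 factors and 0.785 with 8, where C1qa was not well above background. Thyroid follicular cell markers summed to 521 in the primary culture, where all 9 with a probe were above background, against 1.86 and 2.33 in the induced cultures, where 7 and 6 were. All 9 were at least 2-fold lower in both induced cultures, so the label of thyroid follicular-like cells was not borne out by their levels: Iyd was not well above background in either induced culture, Slc5a5 was not with 7 factors, and Pax8 was not with 8. The thyroid sums in the induced cultures were mostly Foxe1, a delivered factor, whose levels were 0.72, 1.12 and 3.21. Epithelial markers summed to 161 with 7 factors, 124 with 8 and 531 in primary cells. Keratins carried those sums, and 7 of the 8 markers were lower in each induced culture, Epcam by 53.8-fold and 34.8-fold. Fibroblast markers summed to 410, 273 and 144. Adipocyte markers summed to 3.24, 3.25 and 2.36, mostly through Fabp4 (levels 1.52, 1.60 and 1.03), and of the 8, Lep was below that mark on every array and Adipoq, Plin1, Cidec and Cfd in the primary culture. The part of these cells in the differences from the primary culture was not tested, and in such bulk RNA fewer cells of a type and less RNA per cell cannot be told apart.

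Sterol synthesis genes were mostly lower in both induced cultures than in primary thyroid cells, while the cholesterol exporters were higher. With 7 factors, 16 of all 37 members were lower by 2-fold or more (43.2%, against 27.1% of the 16152 genes compared) and 3 were higher (8.11%, against 19.1%). The 8-factor culture had 16 members lower (43.2%, against 27.5% of 16160 genes) and 4 higher (10.8%, against 17.8%). Both comparisons use the same primary array, so their counts are not separate evidence. Their member lists overlapped in 14 lower and 3 higher genes, 2 members were lower with 7 factors only and 2 with 8 only, and 0 were called in opposite directions. The same overlap over all genes is not given here, so these numbers are not read as a trait of the members. Scaled to the median in place of the 75th percentile, the arrays gave 6 higher and 13 lower members with 7 factors and 4 and 13 with 8, and 4218 higher and 3694 lower of all genes with 7 factors against 3078 and 4371 here. Without scaling, 9 of the 19 members called with 7 factors and 15 of the 20 called with 8 changed direction, while their order among all genes stayed. The median difference over all members was -0.96 with 7 factors and -0.76 with 8, beside -0.08 and -0.14 over all genes measured on both arrays.

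**Figure D2:**
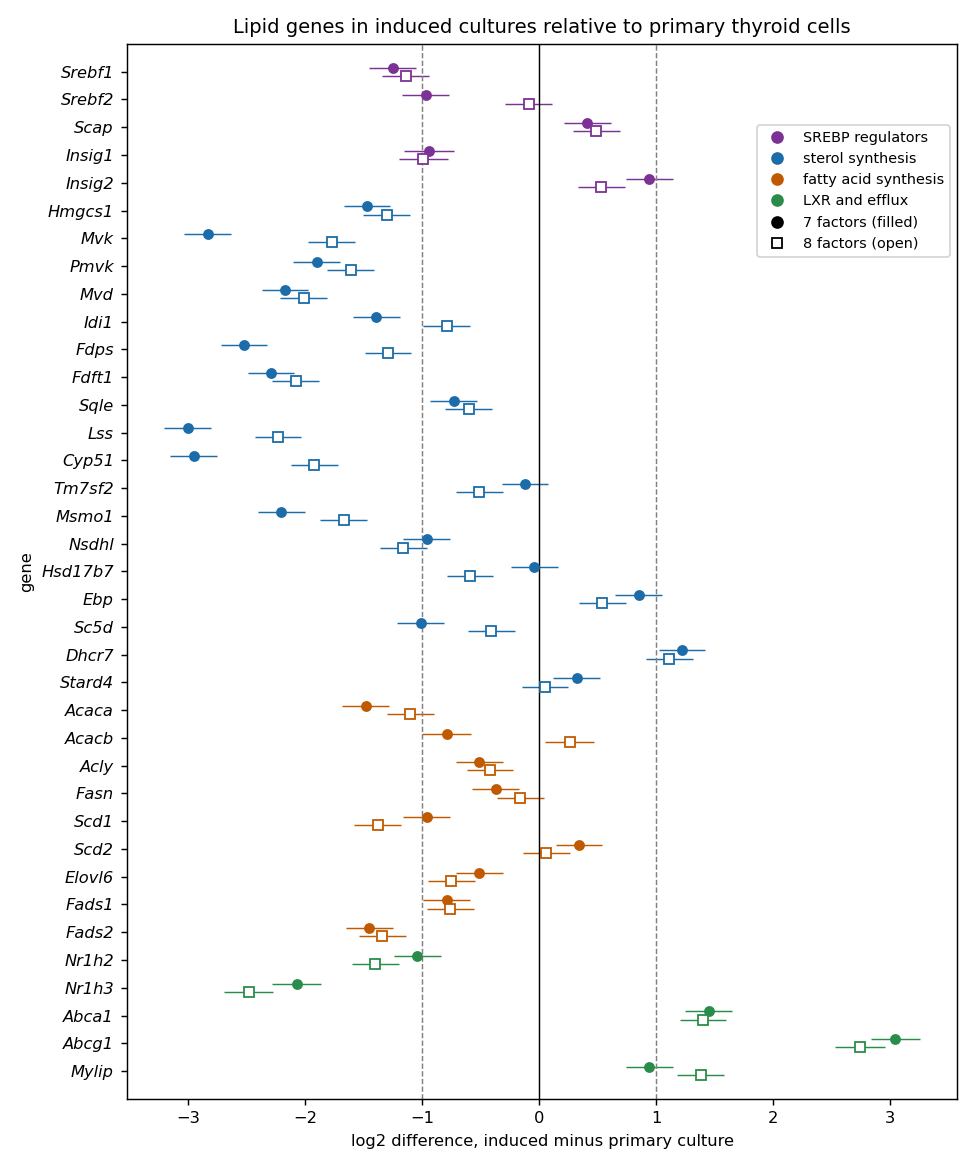
Log2 difference of each of the 37 genes from the primary culture (x axis) for the 7-factor culture (filled circles) and the 8-factor culture (open squares), coloured by role. Bars are the scanner error of a spot, not replicate error, and dashed lines mark a 2-fold difference. On these scaled arrays Lss lies farthest to the left with 7 factors, Nr1h3 (-2.48) with 8, and Abcg1 (3.04 and 2.74) farthest to the right.

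Among the regulators, the transcription factor genes were level or lower and their escort was level. Srebf1, which encodes the SREBP forms that mainly drive fatty acid synthesis, had levels of 3.73 with 7 factors, 3.83 with 8 and 4.98 in primary cells. It was thus 2.38-fold and 2.21-fold lower in the induced cultures, which lay close together, and 24.9% and 27.0% of all measured genes had a lower difference. Without scaling it turned to 0.87 and 1.19. Srebf2, whose product mainly drives sterol synthesis, had levels of -0.43, 0.45 and 0.54, so the 7-factor culture was low (-0.97) and the 8-factor culture stood near primary cells (-0.09). A dimmer Srebf2 probe gave -0.82 and -1.09 instead, and the probes therefore disagree on the 8-factor culture. Scap, the escort, had levels of 4.22, 4.31 and 3.82, all within 2-fold.

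The INSIG genes went different ways without passing 2-fold. Insig1, itself switched on by SREBPs, had levels of -2.13, -2.18 and -1.19, with differences of -0.94 and -0.99 just inside the 2-fold mark. Its second probe gave -0.56 and -1.10. Insig2, its relative in the same role, had levels of 2.87, 2.46 and 1.93, differences of 0.94 and 0.53, while a second probe gave -0.09 and -0.07. As a group, 1 of 5 regulators was lower in each induced culture and 0 were higher. That is 20.0% lower, against 27.1% (7 factors) and 27.5% (8 factors) of all genes compared. Of all genes, 19.1% and 17.8% were higher. With 5 genes these counts are not read as a trait of the regulators.

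Of the 18 sterol synthesis genes, 11 were lower and 1 higher with 7 factors (61.1% lower, against 27.1% of all genes compared), with a median of -1.43. With 8 factors 10 were lower and 1 higher (55.6% lower, against 27.5%), with a median of -1.23. Without scaling these medians turned to 0.69 and 1.10, still below the medians of all measured genes there, 2.04 and 2.20. The 9 enzymes that lead from acetyl units to lanosterol, the first sterol, all lay below 0 in both cultures on their brightest probe. Over all genes measured on both arrays, 7379 of 14055 were below 0 with 7 factors and 7579 of 14069 with 8. Of the 9, 8 were at least 2-fold lower with 7 factors (88.9%, median -2.17) and 7 with 8 factors (77.8%, median -1.61). For all genes compared the shares were 27.1% and 27.5%. Without scaling the medians of the 9 were -0.05 and 0.72. Of the 8 enzymes after lanosterol, 3 were lower and 1 higher in each culture, with medians of -0.54 and -0.55.

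The first steps build isoprene units from acetyl-CoA. Hmgcs1, the cytosolic HMG-CoA synthase, had levels of 3.34 with 7 factors, 3.52 with 8 and 4.81 in primary cells, 2.77-fold and 2.46-fold lower in the induced cultures. Mevalonate kinase, Mvk, had levels of -2.37, -1.31 and 0.46, so that all 3 cultures stood apart and the 7-factor culture was lowest, 7.11-fold below primary cells against 3.42-fold for 8 factors. Only 7.81% of measured genes had a lower difference than Mvk with 7 factors, and 18.3% with 8. The next kinase, Pmvk, had levels of 1.91, 2.20 and 3.81 (3.74-fold and 3.06-fold lower). Mevalonate diphosphate decarboxylase, Mvd, had levels of -0.01, 0.14 and 2.15 (4.49-fold and 4.03-fold lower). For these last genes the induced cultures were alike and the primary culture was high. Idi1, the isomerase that makes the reactive isoprene unit, had levels of 2.46, 3.06 and 3.86, which put it 2.63-fold lower with 7 factors and 1.73-fold with 8.

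The middle steps join isoprene units and close the sterol ring. Farnesyl diphosphate synthase, Fdps, stood at 1.24 with 7 factors, 2.47 with 8 and 3.76 in primary cells, evenly spaced and 5.73-fold and 2.45-fold lower than the primary culture. Squalene synthase, Fdft1, had levels of 1.11, 1.32 and 3.41 (4.90-fold and 4.23-fold lower). Squalene epoxidase, Sqle, a control point of the pathway, differed less, with levels of 2.31, 2.44 and 3.04 and differences of -0.73 and -0.60. Lanosterol synthase, Lss, had levels of -2.31, -1.54 and 0.69 and was 7.99-fold and 4.69-fold lower, with 6.97% and 13.2% of measured genes below it. Sqle was thus the single enzyme up to lanosterol that stayed within 2-fold of primary cells in both induced cultures.

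After lanosterol the enzymes divided. Cyp51, which removes the first methyl group of lanosterol, had levels of -1.89 with 7 factors, -0.85 with 8 and 1.06 in primary cells, 7.74-fold and 3.77-fold lower. Its probes disagreed, since 1 of the others gave -2.98 and -1.96 and the remaining one -0.49 and 0.04. That remaining probe was brighter than the one used in both induced cultures (-1.16 and -0.63) and dimmer in primary cells (-0.67). The probe used thus had the highest mean only through its primary level, and the size of the Cyp51 difference rests on the choice of probe. Msmo1, the methyl sterol oxidase that acts soon after, had levels of 3.47, 4.01 and 5.67 and was 4.59-fold and 3.17-fold lower. Nsdhl, which completes the removal of methyl groups together with Hsd17b7, had levels of -0.57, -0.77 and 0.39, a difference of -0.96 with 7 factors and 2.23-fold lower with 8. Sc5d, the desaturase near the end of the pathway, had levels of 1.73, 2.33 and 2.74, just past the mark with 7 factors (-1.01) and within it with 8 (-0.41).

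The remaining late genes were level or higher in the induced cultures. Tm7sf2, a sterol reductase, had levels of 2.40, 2.01 and 2.52, and Hsd17b7 had 1.56, 1.01 and 1.60, although a dimmer Hsd17b7 probe gave -1.42 and -1.08. Dhcr7, the reductase of the last step of one branch, had levels of 3.42 with 7 factors, 3.32 with 8 and 2.20 in primary cells. Both induced cultures were above the primary one, 2.33-fold and 2.17-fold, and Dhcr7 was the only sterol enzyme called higher; its second probe gave 0.82 and 0.43. Ebp, the isomerase that shifts a sterol double bond, had levels of 5.27, 4.97 and 4.43, differences of 0.85 and 0.54. Stard4, a carrier of cholesterol between membranes, had levels of 0.94, 0.67 and 0.62 on its brightest probe, within 2-fold throughout.

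**Figure D3:**
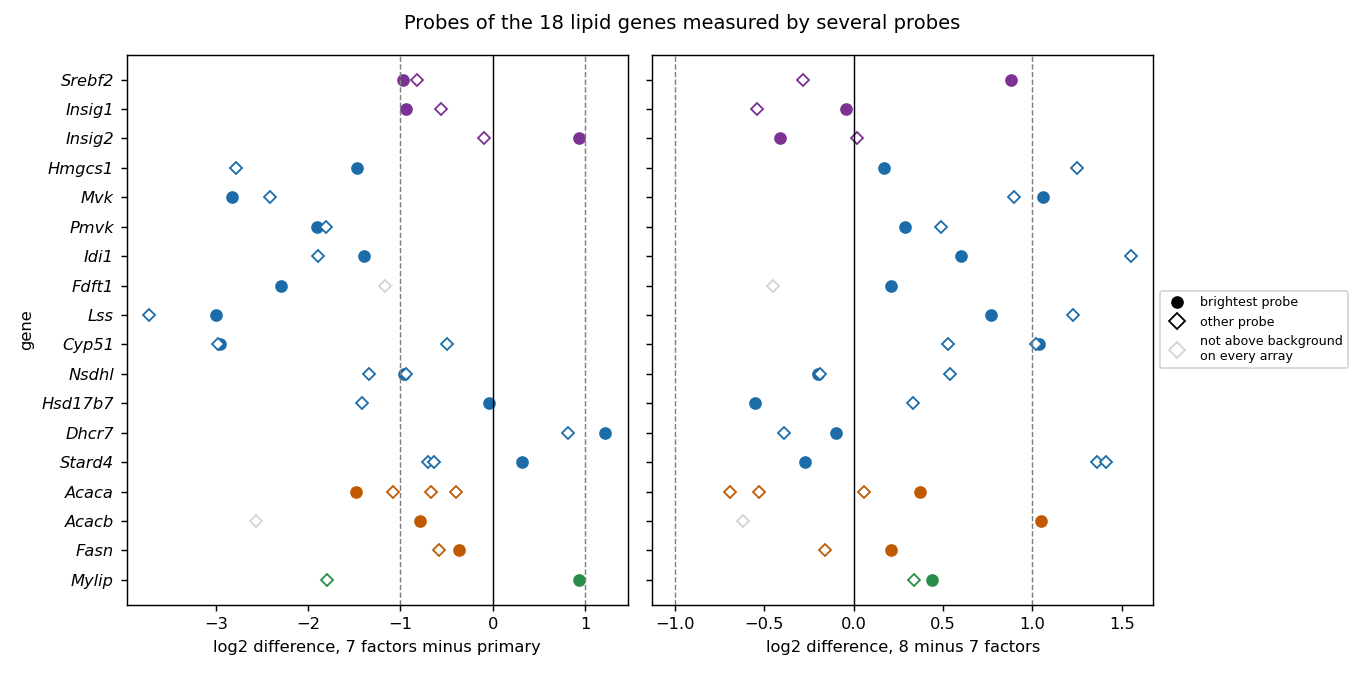
Differences given by each probe of the 18 members with several probes, for 7 factors minus primary (left) and 8 minus 7 factors (right). Filled circles are the brightest probe, open diamonds the others, and grey diamonds are probes not above background on every array. In the left plot both Mvk probes lie beyond -2 and the Mylip probes lie on opposite sides of 0.

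Where a called member had another probe above background on both arrays, all other probes had the same sign for 8 of 8 members with 7 factors and for 7 of 9 with 8 factors, the exceptions being Cyp51 and Mylip. The dimmer probe of Hmgcs1 gave -2.78 and -1.53, that of Lss -3.72 and -2.49, and that of Mvk -2.41 and -1.51, all lower like the brightest ones.

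Fatty acid synthesis genes had smaller median differences than sterol enzymes. Of the 9 genes, 2 were lower with 7 factors and 3 with 8, and 0 were higher in either. That is 22.2% and 33.3% lower, near the 27.1% and 27.5% of all genes compared. The medians were -0.79 and -0.75, which without scaling became 1.33 and 1.58. Acaca, the acetyl-CoA carboxylase that commits acetyl units to fatty acids, had levels of -1.40 with 7 factors, -1.02 with 8 and 0.08 in primary cells (2.78-fold and 2.15-fold lower). Its 3 dimmer probes also lay below 0 in both cultures, from -1.08 to -0.40 with 7 factors and from -1.21 to -1.02 with 8. Fads2, which adds a double bond to polyunsaturated fatty acids, had levels of 0.60, 0.70 and 2.05, 2.73-fold and 2.54-fold lower. Its partner Fads1 moved less, with levels of 0.83, 0.86 and 1.62 and differences of -0.79 and -0.76.

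Some of the remaining fatty acid genes were close to primary cells, among them Fasn, Acly and Scd2. Fasn, the fatty acid synthase, had levels of 5.60, 5.81 and 5.97 and differences of -0.37 and -0.16, and Acly, which supplies acetyl-CoA from citrate, had -0.51 and -0.42. Scd1 and Scd2, desaturases that turn saturated into monounsaturated fatty acids, differed from each other. Scd1 had levels of 1.99, 1.57 and 2.94, a difference of -0.96 with 7 factors and 2.60-fold lower with 8, while Scd2 had 5.71, 5.43 and 5.37, with differences of 0.34 and 0.06. The files hold no probe sequences, so signal shared between these near relatives cannot be split. Elovl6, which lengthens palmitate, had differences of -0.51 and -0.75. Acacb, the mitochondrial form of the carboxylase that restrains fatty acid burning, had levels of -2.87, -1.82 and -2.08, so that the 7-factor culture was lowest and the 8-factor culture highest.

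In the LXR group both receptors were lower in the induced cultures and the exporters Abca1 and Abcg1 were higher, while the direction of Mylip differed between its probes. Nr1h3, the LXR of macrophages, liver and fat, had levels of -2.92 with 7 factors, -3.33 with 8 and -0.85 in primary cells, 4.21-fold and 5.59-fold lower. Nr1h2, the widely expressed LXR, had levels of 1.11, 0.76 and 2.16, 2.06-fold and 2.64-fold lower. The macrophage markers given above were also lower in the induced cultures, and their part in the Nr1h3 difference was not tested. Without scaling, Nr1h2 turned to 1.07 and 0.93, and Nr1h3 to 0.05 with 7 factors, staying at -0.15 with 8.

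Abcg1, which exports cholesterol to lipoproteins, had levels of 1.34 with 7 factors, 1.04 with 8 and -1.71 in primary cells. It was 8.25-fold and 6.70-fold higher in the induced cultures, and 98.0% and 97.5% of all measured genes had a lower difference. Abca1, which loads cholesterol onto apolipoprotein, had levels of 2.52, 2.47 and 1.07, 2.74-fold and 2.64-fold higher, with 89.4% and 89.1% of genes below. The induced cultures stood close together for each exporter and the primary culture was the low one. Mylip had levels of 2.33, 2.77 and 1.38 (0.94 and 1.38), but its dimmer probe gave -1.80 and -1.46. With all probes of a gene averaged, Mylip turned to -0.43 with 7 factors and -0.04 with 8, so its direction rests on the choice of probe. Abca1 and Abcg1 have 1 probe each and kept their direction under every alternative run.

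The induced cultures differ by design in Hhex, and by anything else that differs between 1 culture and another. Both arrays lay on 1 slide and were read in 1 scan, but the spike-in controls were dimmer on the 8-factor array (mean log2 intensity 9.58 against 10.4) and copies of a probe spread more there (median SD 0.11 against 0.077). The part of this in the differences was not tested. Here 4 of 37 members were at least 2-fold higher with 8 factors (10.8%, against 4.54% of 16262 genes) and 0 were lower (0 of 37, against 4.04%). Fdps was 2.34-fold higher (1.22), Mvk 2.08-fold (1.06), Acacb 2.07-fold (1.05) and Cyp51 2.05-fold (1.04), each past the mark by no more than about the scanner error. With median scaling, quantile normalization or the mean of all probes, 1, 1 and 2 members passed 2-fold. Fdps has 1 probe, so the mean of all probes could not change its value, and the deposited table holds the same signal. Under the other alternatives Fdps was past 2-fold, with values from 1.10 to 1.44. No replicate shows how far 2 cultures of the same kind would differ.

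The 9 enzymes up to lanosterol were all above 0 in this comparison on their brightest probe, from 0.13 for Sqle to 1.22 for Fdps. Of all genes measured on both arrays, 6535 of 15489 were above 0. The median of the 9 enzymes was 0.29, beside -0.09 for all these genes. However, Hmgcs1, Mvd and Sqle fell below 0 with normexp background correction and Fdft1 with the mean of its probes. Lss (0.77) and Idi1 (0.60) followed those past the mark, and Hmgcs1 (0.17), Mvd (0.16), Fdft1 (0.21) and Pmvk (0.29) were near level. Dimmer probes gave larger values for several, 1.25 for Hmgcs1, 1.55 for Idi1 and 1.23 for Lss. Other probes gave smaller values for Mvk (0.90), Cyp51 (0.53 and 1.02) and Fdft1 (-0.45). Of these smaller values, only the 1.02 of Cyp51 passed the 2-fold mark. After lanosterol, 3 of 8 were above 0, namely Cyp51, Sc5d (0.60) and Msmo1 (0.53), and Hsd17b7 (-0.55) was the lowest of all 37 members. Stard4 was -0.27 on its brightest probe and 1.36 and 1.41 on its others. Srebf2 was 1.84-fold higher (0.88) on its brightest probe and -0.28 on the other, and Srebf1 (0.11), Scap (0.08) and Insig1 (-0.04) were level. Fatty acid genes other than Acacb ranged from -0.42 for Scd1 to 0.37 for Acaca, and the LXR group from -0.41 for Nr1h3 to 0.44 for Mylip.

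**Figure D4:**
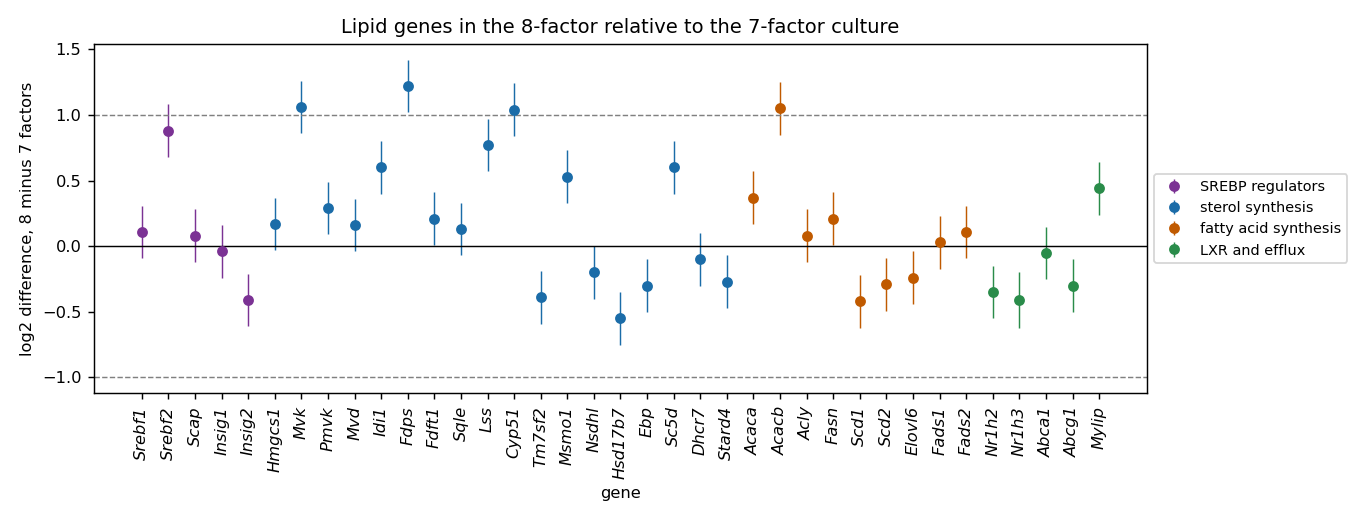
Log2 difference of each member between the 8-factor and the 7-factor culture (y axis), coloured by role, with the scanner error as bars and dashed lines at a 2-fold difference. Fdps, Mvk, Acacb and Cyp51 lie above the upper line, and the lowest value is that of Hsd17b7 at -0.55.

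Other genes of these pathways outside the set gave a mixed picture. Of 8 genes that process SREBPs or sense sterols, 1 was higher with 7 factors (Erlin1, 1.11) and 0 with 8, and 0 were lower. In 10 further sterol and isoprenoid genes, 3 were lower and 1 higher with 7 factors and 2 lower with 8. Ch25h, which makes an oxidised sterol and is known from macrophages, had the largest difference with 7 factors (-4.75, and -3.60 with 8), and the part of the macrophage signal in it was not tested. Acat2, which makes acetoacetyl-CoA, had -3.10 and -4.37, a value that its close relative Acat3 may share. Among 8 uptake and transport genes, 2 were higher and 2 lower with 7 factors, and 1 and 2 with 8. The sterol carrier Stard5 was lower in both (-2.45 and -1.59), as was Npc2, which takes cholesterol out of lysosomes (-1.54 and -1.89), and the lipoprotein receptor Lrp1 was higher in both (1.97 and 1.83). Lipa, the lysosomal enzyme that frees cholesterol from its esters, was higher with 7 factors (1.67) and at 0.25 with 8.

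The 19 further fatty acid and glycerolipid genes also went both ways, with 4 higher and 5 lower of 18 compared with 7 factors and 4 and 4 with 8. The lipid transcription factor Mlxipl (-3.50 and -2.76), the lipogenic protein Thrsp (-2.99 and -1.97) and the desaturase Scd3 (-2.56 and -2.63), a close relative of Scd1, were lower, and lipoprotein lipase Lpl was higher (3.12 and 2.32). Of 8 LXR partners and targets, 7 were compared: Pltp, a phospholipid transfer protein, was higher in both cultures (1.49 and 1.49), Arl4c was lower in both (-1.81 and -1.31), and Lpcat3 was lower with 8 factors (-1.03). The known LXR targets thus did not all go the way of Abca1 and Abcg1.

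**Figure D5:**
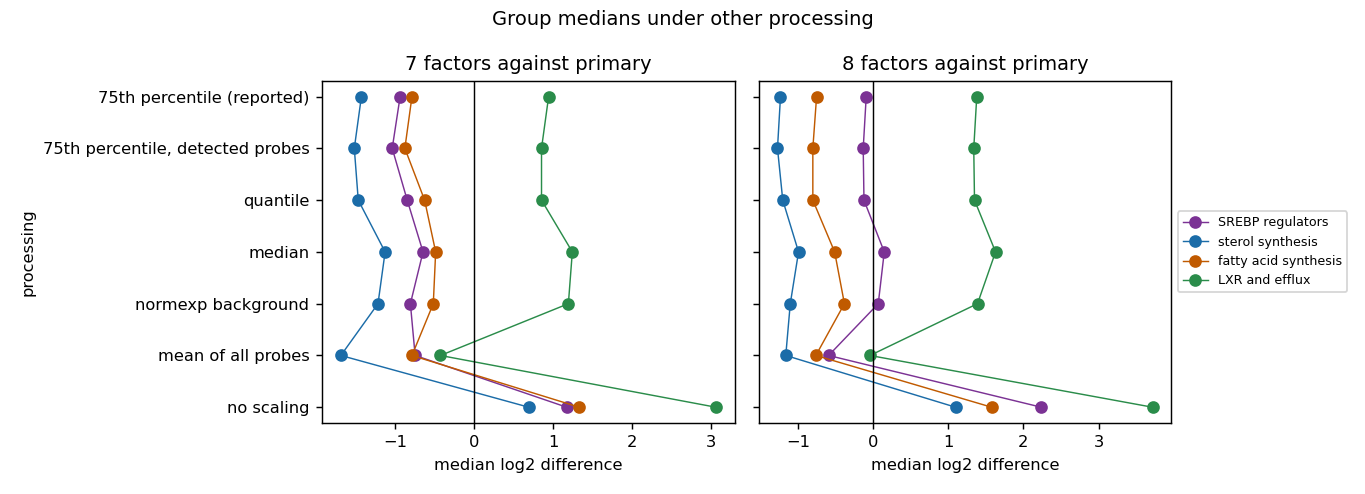
Median log2 difference from the primary culture for the 4 groups of members (x axis) under 7 ways of processing (y axis), for 7 factors (left) and 8 factors (right). The sterol synthesis median stays between -1.69 and -0.99 in every row with scaling and moves to 0.69 and 1.10 without it, where every gene shifts by a like amount.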

How the data were processed

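Gene expression was read on 1 Agilent one-colour array (Cy3) per culture, and groups come from the labels. The deposited array files hold intensity values: per the file headers, Agilent Feature Extraction 11.5.1.1 subtracted background and corrected trends across each array, while the submitters' processing notes name version 10.5. Per the file headers the grid refers to mm9. Values in the deposited series table are identical to that signal and lack the 75th percentile shift that the design text names. The deposited marks for spots well above background, saturated (0 spots) or outlying are other values of 0 or 1.

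Control and outlier spots were left out, copies of a probe averaged as log2 values and each array's 75th percentile taken off (Python 3.11.15, pandas 2.3.3). This left 41171 probes, of which 27815 (67.6%) took 1 gene name through RefSeq accessions (GRCm38.p6, names only). The 37 members have 60 probes. The brightest probe, meaning the one with the highest mean level over the 3 arrays, stood for a gene. Genes above background on just 1 array of a pair were set against a bound, the higher of the dim probe's own signal and the lowest signal above background, and no fold under 1 was used. The scanner error combines the deposited signal errors. Comparison code was tested on simulated data.

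The members and lists were chosen with earlier results of these data known. All members are named; values on 3 arrays are given for those past 2-fold and for regulators, and for some others. Of the other pathway lists, some genes past 2-fold are named, chosen after their values were seen. Alternatives were median, quantile or no scaling, a percentile over probes above background everywhere, normexp (limma 3.58.1, offset 50, on median signals since the files hold no mean signal, chosen after seeing the data), genes above background on both arrays, the mean of all probes, outlier spots kept and the deposited table. With 1 array per group only the spread of spots is known, and the number of arrays limits the precision.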

Additional observations from a re-analysis of the deposited data

How the results depend on the processing

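Leaving out scaling between arrays changed most directions against the primary culture, and the other alternatives moved counts near the 2-fold mark. Without scaling, 23 members were higher and 0 lower with 7 factors, and 26 higher and 0 lower with 8, where 11208 and 11715 of all genes were higher and 1140 and 978 lower. The medians of sterol synthesis turned to 0.69 and 1.10 and that of the enzymes up to lanosterol to 0.72 with 8 factors. Of 19 called members 9 changed sign with 7 factors, giving Srebf1 0.87, Hmgcs1 0.65, Pmvk 0.22, Idi1 0.73, Sc5d 1.11, Acaca 0.64, Fads2 0.67, Nr1h2 1.07 and Nr1h3 0.05. Of 20 called with 8 factors 15 changed sign, giving Srebf1 1.19, Hmgcs1 1.03, Mvk 0.56, Pmvk 0.72, Mvd 0.32, Fdps 1.04, Fdft1 0.25, Lss 0.10, Cyp51 0.41, Msmo1 0.67, Nsdhl 1.17, Acaca 1.23, Scd1 0.95, Fads2 0.99 and Nr1h2 0.93. Every gene shifts by a like amount there, so that order among genes is kept. Members higher with 7 factors numbered 6 with median scaling and 5 with normexp correction, against 3 as reported. With the mean of all probes 2 members were higher with 8 factors than in primary cells, against 4, Mylip turned to -0.04 and the LXR and efflux median to -0.04 (-0.43 with 7 factors), by the averaging of Mylip's opposed probes. Members higher with 8 than with 7 factors numbered 1 with scaling to the median, 1 with quantile normalization and 2 with the mean of all probes, against 4. For these shifts in counts the cause was not tested. With scaling, all called members kept their direction under every alternative except Mylip. No paired analysis was possible because each group has 1 sample. No replicate could be left out, for the same reason. Members were well above background, so signal over background limits them little, while the lack of replicates limits every value.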
